A study of Rattus norvegicus with 4 samples.

Results

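The genes described here are 9 markers of the formative and primed states of pluripotency, *Otx2*, *Pou3f1*, *Zic2*, *Sox4*, *Sox11*, *Sall2*, *Lin28b*, *Cdh2* and *Tbxt*. They were selected by gene symbol from a count table of 34773 genes measured by RNA-seq in rat embryonic stem cells (ESCs). The rule used symbols only, but earlier results of these data were known when the markers were chosen. Of the 9 genes, 8 were found in the table, and *Sox4* was not analysed here. Of these 8, 5 had enough reads to be tested between genotypes (*Zic2*, *Pou3f1*, *Sox11*, *Cdh2* and *Lin28b*), and *Sall2*, *Tbxt* and *Otx2* stayed under the filter on low counts.

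Pluripotency is passed through in stages. Naive cells resemble the epiblast before implantation and are held there in culture by blocking MEK and GSK3 and adding LIF. When this block is lifted, they lose naive factors and enter a formative state, in which OTX2 and POU3F1 (OCT6) join OCT4 at newly used enhancers. Primed cells resemble the epiblast after implantation, show early lineage genes such as *Tbxt*, and begin to exchange E-cadherin for N-cadherin.

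The control, labelled WT, was 1 library of DA-5-3 GFP, a rat ESC line with a GFP reporter at *Rex1*, a naive marker gene. The other 3 libraries, labelled Thop1-KO, were read as subclones #1, #2 and #3 of the same reporter line, from the numbers in their titles. Each subclone was 1 clone made with Cas9 against *Thop1*, which encodes a peptidase that cleaves short peptides. The methods describe culture of rat ESCs on feeder cells with the MEK inhibitor PD0325901, the GSK3 inhibitor CHIR99021 and LIF. The series text calls the sequenced cells haploid, whereas the study names DA-5-3 as diploid. The comparison asks how far marker genes of later stages differed between the subclones and the control. As the control had 1 library, every p-value rests on the spread among the 3 subclones, and genotype cannot be told apart from any other difference of that 1 culture. Permuting 1 library against 3 cannot give a one-sided exact p under 0.25.

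The libraries held between 15405499 and 17936544 counts on genes, and a count of 3, taken as the floor, corresponded to between 0.167 and 0.202 CPM, the count scaled to library depth by TMM. *Thop1* itself was at 29.7%, 25% and 40.3% of the control CPM in #1, #2 and #3. ESC identity was checked by the core genes *Pou5f1* (3889 to 4842 CPM) and *Nanog* (334 to 494 CPM), which were abundant in all 4 libraries. Other ESC genes were not level. *Esrrb* was at 286 to 330 CPM in the subclones and 15.9 in the control, and *Tfcp2l1* at 231 to 279.5 and 34.5. *Sall4* (117 to 185 against 23.6) and *Sox2* (370 to 668 against 305) were also lowest in the control. *Lin28a* was highest there, at 149 against 57.6 to 125. The quasi-likelihood test of edgeR, adjusted by Benjamini-Hochberg, called 13.8% of the 15028 genes tested at an adjusted p under 0.05, with 8.62% higher and 5.17% lower in Thop1-KO. The median log2 fold change over all genes tested was 0.06.

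Among the 5 tested markers, none was called by this test. At an unadjusted p under 0.05 by edgeR, 2 of the 5 were higher in Thop1-KO, *Zic2* and *Pou3f1*. Of all 15028 genes tested, 5110 had such a p in either direction, so this is common. DESeq2's Wald test called 1 of them, *Zic2*, beside 21.5% of its 13973 genes in either direction and 14.2% in the higher direction. The control lay below all 3 subclones for *Zic2*, *Pou3f1* and *Lin28b*, above all 3 for none, and inside their range for *Sox11* and *Cdh2*. Over all genes tested, the control lay outside the range of the subclones in 75.7%, below it in 38.1% and above it in 37.6%, which is the background of these counts. In bulk RNA, fewer cells that express a gene and less RNA per cell cannot be told apart.

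**Figure D1:**
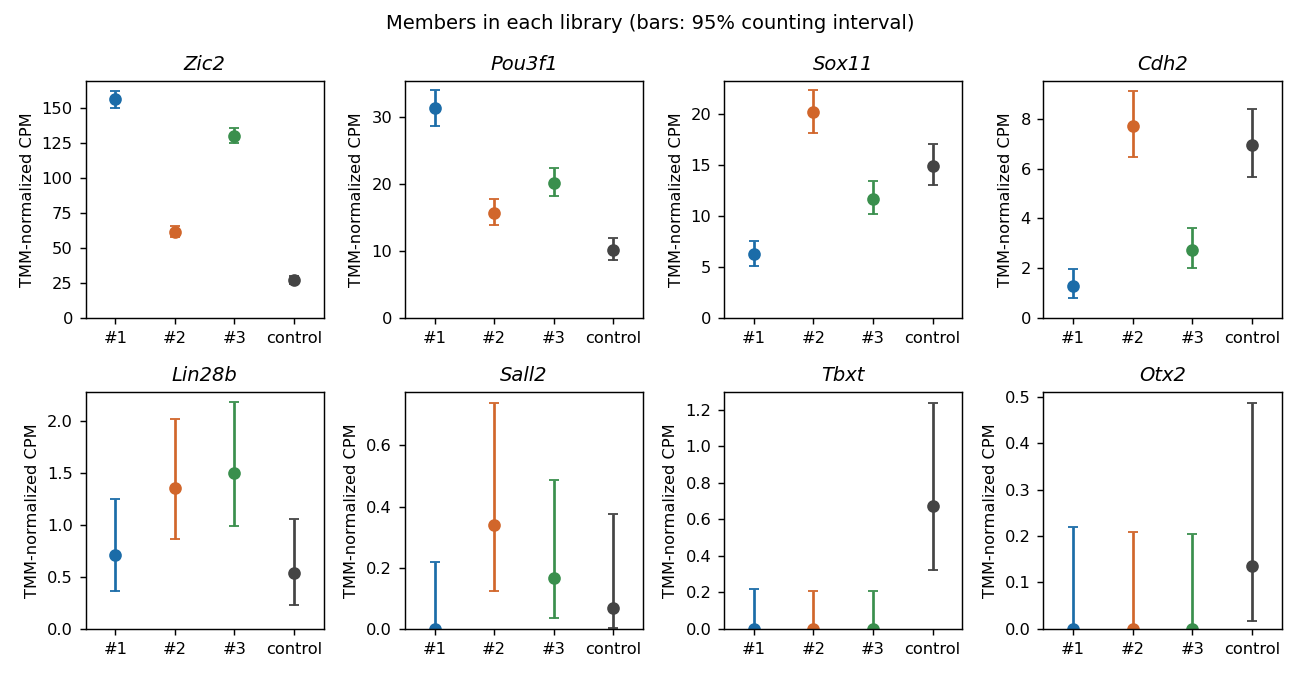
TMM-normalized CPM (y axis, linear, 1 scale per panel) of the 8 markers found in the table, for subclones #1, #2 and #3 of Thop1-KO and the control, with 95% Poisson intervals that cover counting error only. *Zic2* and *Pou3f1* were lowest in the control, *Sox11* and *Cdh2* were highest in #2, and *Tbxt* and *Otx2* had counts in the control only.

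*Zic2* encodes a zinc finger protein of the Zic family that binds enhancers as cells leave the naive state and later patterns the forebrain. In the deposited annotation it is at chr15:108908607-108912737 on the plus strand, with 1587 bases of exon (ENSRNOG00000054879), a length that is a multiple of 3, as were 51.8% of the protein-coding models of the table. It was measured at 157 CPM in #1, 61.9 in #2, 131 in #3 and 27.3 in the control. All 3 subclones lay above the control without overlap of their counting intervals, but #2 stood far closer to it than #1 and #3 did. The ratio to the control was 5.73 in #1 (95% counting interval 5.16 to 6.38), 2.27 in #2 (2.02 to 2.55) and 4.78 in #3 (4.30 to 5.32), and the mean of the subclones was 116 ± 48.9 CPM (SD, n = 3). The log2 fold change was 2.09 (SE 0.56, 95% interval 0.76 to 3.42, adjusted p = 0.0526, edgeR). This value stood just outside the threshold. It was called in 6 of 12 alternative analyses, with an adjusted p between 2.42e-05 and 0.107 over all 12, and with DESeq2 the adjusted p was 0.000121. The smallest of these was that without #2, where edgeR called 37.9% of 14704 genes. Without #1 the adjusted p was 0.0342, where 13.6% of 14824 genes were called, and without #3 it was 0.107, both by edgeR.

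The promoter of *Zic2* is shown because its level was the highest of the markers, that of *Tbxt* because it alone was above the floor in the control and at 0 in every subclone, and that of *Lin28b* because its base composition is unlike theirs. Each runs from 250 bases before to 50 bases after the start of the RefSeq gene model of build GRCr8, a build that is not stated to be that of the count table. Promoters were matched by symbol for 4 of the 9 genes, the remaining one being *Sox11*. Capitals mark matches on either strand to 5 short motifs, the CCAAT box (CCAAT), the GC box (GGGCGG), the TCF/LEF core (CTTTGA), the T-box half-site (AGGTGT) and the TATA box (TATAAA). These were found in 37.5%, 33.1%, 16.1%, 13.6% and 14.2% of all 33469 promoters of the same length.
*Zic2*, chr15:105983092-105983391, plus strand: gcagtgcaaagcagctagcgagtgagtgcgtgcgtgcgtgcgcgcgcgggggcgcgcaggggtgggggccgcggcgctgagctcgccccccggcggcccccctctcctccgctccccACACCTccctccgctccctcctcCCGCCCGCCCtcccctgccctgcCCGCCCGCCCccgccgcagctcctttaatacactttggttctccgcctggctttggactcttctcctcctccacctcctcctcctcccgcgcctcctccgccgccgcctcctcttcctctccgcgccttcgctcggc
*Tbxt*, chr1:54853534-54853833, minus strand: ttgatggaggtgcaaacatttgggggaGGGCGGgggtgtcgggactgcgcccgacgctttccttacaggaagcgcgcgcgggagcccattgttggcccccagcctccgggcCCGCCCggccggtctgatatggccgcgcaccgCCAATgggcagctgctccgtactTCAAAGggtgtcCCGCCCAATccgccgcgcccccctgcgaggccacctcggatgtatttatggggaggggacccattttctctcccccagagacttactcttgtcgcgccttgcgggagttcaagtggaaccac
*Lin28b*, chr20:50532452-50532751, minus strand: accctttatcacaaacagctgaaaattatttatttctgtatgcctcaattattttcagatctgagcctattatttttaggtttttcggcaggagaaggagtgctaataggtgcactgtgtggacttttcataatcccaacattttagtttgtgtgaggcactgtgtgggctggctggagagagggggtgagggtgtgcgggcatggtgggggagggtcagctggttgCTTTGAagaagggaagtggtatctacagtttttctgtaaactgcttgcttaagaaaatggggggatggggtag
The *Zic2* window held 34 CpG dinucleotides, 4 GC boxes and 1 T-box half-site. The *Tbxt* window held 26 CpG dinucleotides, 3 GC boxes, 2 CCAAT boxes and 1 TCF/LEF core, where 1 GC box and 1 CCAAT box overlap. The *Lin28b* window held 2 CpG dinucleotides and 1 TCF/LEF core. The median over all promoters was 7 CpG dinucleotides. The RNA libraries do not measure binding, and these matches are a description of the sequence.

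*Zic5*, the neighbour of *Zic2* 9903 bases away on the other strand, was at 19.1, 14.9 and 19.8 CPM in #1, #2 and #3 and at 12.4 in the control (log2 fold change 0.53, SE 0.35, adjusted p = 0.321, edgeR). Its interval (-0.31 to 1.36) spanned 0. In FPKM, *Zic2* exceeded *Zic5* by 10.5, 5.36 and 8.48 times in #1, #2 and #3 and by 2.83 times in the control, so the ratio within a library was higher in each subclone. *Zic1*, a gene of the neural plate, was counted 10 times in #1, 33 in #2 and 20 in #3, and not in the control.

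*Pou3f1*, the POU factor OCT6, is the other DNA-binding gene whose 3 subclones lay above the control. It is at chr5:142643599-142646580 on the plus strand, with 2981 bases of exon (ENSRNOG00000047686), and the deposited annotation lists it as a pseudogene. Its level was 31.2 CPM in #1, 15.7 in #2, 20.1 in #3 and 10.2 in the control. As with *Zic2*, #1 was highest and #2 lowest of the subclones, an order shared by 24.6% of all genes tested. The ratio to the control was 3.08 in #1 (95% counting interval 2.56 to 3.71), 1.55 in #2 (1.27 to 1.90) and 1.98 in #3 (1.64 to 2.41). The log2 fold change was 1.14 (SE 0.47, 95% interval 0.01 to 2.26, adjusted p = 0.143, edgeR), and DESeq2 gave an adjusted p of 0.0724. Without #2 it passed the threshold (log2 fold change 1.34, adjusted p = 0.0114, edgeR), whereas over all 12 alternatives the adjusted p ran up to 0.275. Of all genes tested without #2, 21.1% were called higher, so passing there is common.

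*Pou5f1*, which encodes OCT4, the POU partner with which OCT6 is compared in this transition, was at 4842, 3889 and 4776 CPM in the subclones and 4794 in the control (log2 fold change -0.09, SE 0.20, adjusted p = 0.778, edgeR). *Pou5f1* exceeded *Pou3f1* in FPKM by 327, 522 and 500 times in #1, #2 and #3 and by 995 times in the control. *Pou2f1*, a broadly expressed POU gene, was not called either. *Pou3f2*, a neural relative of *Pou3f1*, was counted 1, 17 and 6 times in #1, #2 and #3, and not in the control.

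*Otx2*, the homeobox gene that acts with *Pou3f1*, was close to absent. Its count was 0 in each of the 3 subclones and 2 in the control, all under the floor, so no fold is given. The floor limits *Otx2* to 0.179, 0.170 and 0.167 CPM in #1, #2 and #3. The gene is at chr15:25517721-25521393 on the minus strand, with 870 bases of exon (ENSRNOG00000056186). LOC100911492, 12029 bases away on the same strand, has the same exon length of 870 bases and the same span of 3673 bases, and had 0 counts in all libraries. Reads that match both of such models may have gone to neither, so the level of *Otx2* is uncertain.

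The SOX member found in the table, *Sox11*, encodes a SoxC factor of neural and mesenchymal progenitors. It is at chr6:46629974-46631983 on the minus strand as 1 stretch of 2010 bases (ENSRNOG00000030034). Its level was 6.26 CPM in #1, 20.1 in #2, 11.7 in #3 and 14.9 in the control. The control lay between #3 and #2, and the subclones differed more from each other than their mean did from it. Between #2 and #1 the ratio was 3.22 (95% counting interval 2.58 to 4.04), with 1 library each and thus no replicate check. The log2 fold change was -0.23 (SE 0.60, 95% interval -1.66 to 1.20, adjusted p = 0.808, edgeR). Without #1 its sign turned, to 0.10.

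*Sox12*, the third SoxC gene beside *Sox4* and *Sox11*, was higher in Thop1-KO, at 84.7, 51.8 and 93.3 CPM in #1, #2 and #3 against 15.1 in the control (log2 fold change 2.34, SE 0.43, adjusted p = 0.0211, edgeR). In FPKM, *Sox12* exceeded *Sox11* by 26.7, 5.07 and 15.7 times in the subclones and 1.99 times in the control. *Sox2*, a core ESC factor, was at 594, 370 and 668 CPM against 305 (log2 fold change 0.83, SE 0.36, adjusted p = 0.157, edgeR).

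*Sall2*, a zinc finger gene of the spalt family, was read at the limit of detection, with a count of 0 in #1, 6 in #2, 3 in #3 and 1 in the control. The gene is at chr15:28728140-28746042 on the minus strand, with 5666 bases of exon (ENSRNOG00000013287). The ratio of #2 to the control was 5.04, with a counting interval of 0.612 to 232 that spans equality. Its relative *Sall4*, an ESC regulator, was higher in Thop1-KO, at 185, 117 and 166 CPM against 23.6 (log2 fold change 2.72, SE 0.37, adjusted p = 0.0102, edgeR). *Sall1* and *Sall3* had log2 fold changes of 0.96 and 1.34 and were not called (adjusted p = 0.178 and 0.128, edgeR).

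**Figure D2:**
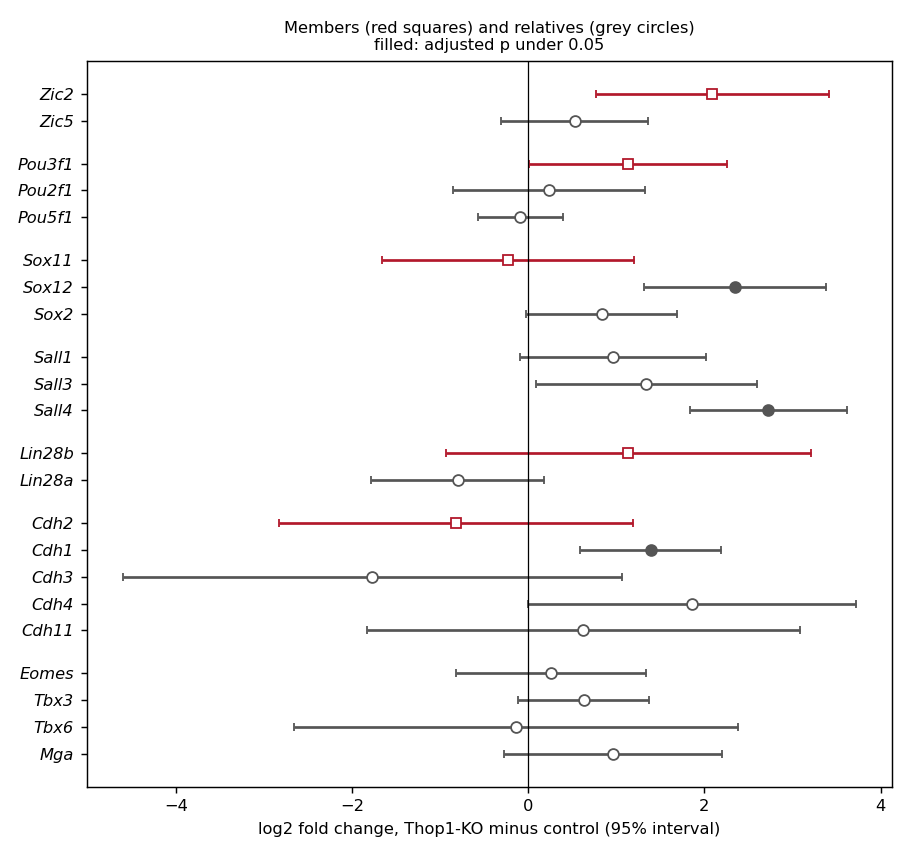
log2 fold change of Thop1-KO over the control (x axis, with 95% intervals from edgeR) for the 5 tested markers (red squares) and other tested genes of their families with counts in the control (grey circles). Filled symbols have an adjusted p under 0.05, which *Sox12*, *Sall4* and *Cdh1* reached and none of the markers did.

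Over the whole list of relatives of the markers, 27 genes in all, 25 were in the table and 20 were tested. Of these, 3 were called higher in Thop1-KO (*Sall4*, *Sox12* and *Cdh1*) and none was called lower, beside 8.62% and 5.17% of all genes tested. The median log2 fold change was 0.73 against 0.06 over all genes tested. The same shares are the background of the counts of called genes in each list below.

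*Lin28b* encodes an RNA-binding protein that blocks maturation of the let-7 microRNAs, as does its paralog *Lin28a*. The mature let-7 forms are shown because they define the target genes of this pathway, with the seed (bases 2 to 8) in capitals as RefSeq lists them. All 8 forms found share 1 seed, and 3 of them are printed here.
rno-let-7a-5p: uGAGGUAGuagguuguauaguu
rno-let-7d-5p: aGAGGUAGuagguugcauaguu
rno-let-7g-5p: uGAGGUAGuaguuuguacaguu
The poly(A) libraries measured messenger RNA, and no let-7 level was analysed here.

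*Lin28b* is at chr20:50486809-50564987 on the minus strand, with 816 bases of exon (ENSRNOG00000025938). Its count was 12 in #1, 24 in #2, 27 in #3 and 8 in the control, which is 0.716, 1.36 and 1.503 CPM against 0.538. The control was lowest, but its counting interval overlapped those of all 3 subclones. The ratio to the control was 1.33 in #1 (95% counting interval 0.4996 to 3.75), 2.52 in #2 (1.10 to 6.49) and 2.79 in #3 (1.23 to 7.11). The log2 fold change was 1.14 (SE 0.87, 95% interval -0.93 to 3.21, adjusted p = 0.385, edgeR). The 3 subclones ranked #3, #2, #1 from high to low, an order that 11.7% of all genes tested had.

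*Lin28a* was at 57.6, 125 and 73.8 CPM in #1, #2 and #3 and 149 in the control, the control being highest (log2 fold change -0.80, SE 0.41, adjusted p = 0.216, edgeR). In FPKM, *Lin28a* exceeded *Lin28b* by 18.7, 21.4 and 11.4 times in the subclones and 64.2 times in the control. The ratio was lower in each subclone than in the control, although neither gene was called.

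The list of let-7 targets and genes of the Lin28 axis held 20 genes, of which 18 were in the table and 17 were tested. Of these, 5 were called higher in Thop1-KO and none was called lower, beside 8.62% and 5.17% of all genes tested. The median log2 fold change was 0.35. The RNA-binding proteins *Igf2bp3* (45.4, 39.4 and 40.0 CPM against 4.51) and *Igf2bp1* (254, 213 and 247 against 56.0) were higher in all 3 subclones, with log2 fold changes of 3.20 and 2.09 (adjusted p = 0.00705 and 0.00889, edgeR). The chromatin protein *Hmga1* (log2 fold change 1.86) and the ubiquitin ligase *Trim71* (2.45) were higher as well (adjusted p = 0.0120 and 0.0154, edgeR). The remaining one was *Arid3a*, with a log2 fold change of 2.92 (adjusted p = 0.0270, edgeR), named after its value was seen.

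*Cdh2* encodes N-cadherin, the adhesion molecule that replaces E-cadherin as epiblast cells become primed or mesenchymal. It is at chr18:8146971-8360684 on the minus strand, with 4339 bases of exon (ENSRNOG00000015602). Its level was 1.31 CPM in #1, 7.69 in #2, 2.73 in #3 and 6.93 in the control. Subclone #2 and the control were alike, with a ratio of 1.11 (95% counting interval 0.853 to 1.45), whereas #1 and #3 lay far below both. The ratio to the control was 0.189 in #1 (0.114 to 0.302) and 0.394 in #3 (0.274 to 0.558). The log2 fold change was -0.82 (SE 0.84, 95% interval -2.83 to 1.19, adjusted p = 0.516, edgeR). Without #2 it was -1.77 and passed the threshold (adjusted p = 0.0166, edgeR), so 1 subclone decides this call. In that analysis 16.8% of all genes tested were called lower, against 5.17% with all 3 subclones. Over all 12 alternatives the adjusted p ran up to 0.722. The ratio of #2 to #1 was 5.86 (95% counting interval 3.72 to 9.67).

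*Cdh1*, which encodes E-cadherin, was higher in Thop1-KO, at 868, 522 and 646 CPM in #1, #2 and #3 against 259 (log2 fold change 1.39, SE 0.34, adjusted p = 0.0412, edgeR). In FPKM, *Cdh1* exceeded *Cdh2* by 653 times in #1, 67.0 in #2 and 234 in #3, and by 36.9 times in the control. Of the 14 epithelial genes tested from a list of 16, only *Cdh1* was called, and the median log2 fold change was 0.79. Of 12 mesenchymal genes, all tested, 2 were called higher, *Fn1* (3797, 3764 and 3892 CPM against 1640.3, log2 fold change 1.22, adjusted p = 0.0145, edgeR) and *Itga5* (11.5, 11.8 and 9.63 against 2.02, log2 fold change 2.44, adjusted p = 0.0195, edgeR). These encode fibronectin and a chain of its receptor, and the median of the mesenchymal list was 0.76. Of the 6 tested of 7 catenin genes, whose products link cadherins to the cytoskeleton, *Ctnnb1* was higher (log2 fold change 1.95, adjusted p = 0.00970, edgeR), and the median was 0.58. None of these 3 lists had a gene called lower. Of the 12 mesenchymal genes, the control lay below all 3 subclones for 7 and above all 3 for 2. Among the latter was *Snai1* (log2 fold change -1.27, adjusted p = 0.0522, edgeR), just outside the threshold.

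Genes of fibroblasts, the cell type usually used as a feeder, were read beside *Cdh2* and *Sox11*. Of 18 listed fibroblast genes, 17 were in the table and 14 were tested, and 13 of these 14 were highest in #2 of the 3 subclones, beside 39.3% of all genes tested. Their summed level was 412 CPM in #1, 818 in #2, 519 in #3 and 273 in the control, the same order of the subclones as for *Cdh2* and *Sox11* (25.1% of all genes tested had this order). The control was lowest in this sum, unlike in *Cdh2* and *Sox11*. The largest part of the sum was *Col1a1*, at 304, 555 and 374 CPM in #1, #2 and #3 and 190 in the control. Gene by gene, the control had the lowest level for 9 of the 14 tested genes and the highest for 2. For the other 3 its level fell between those of the subclones, as for *Cdh2* and *Sox11*. Of the listed genes, *Dcn*, *Lum* and *Thy1* had 0 counts in all 4 libraries. *Col3a1* (16.2, 80.0 and 36.9 CPM in #1, #2 and #3 against 6.39), *Pdgfrb* (1.73, 6.22 and 2.45 against 1.615) and *Postn* (0.358, 1.02 and 0.445 against 0.202) were read in every library and were lowest in the control. Calls were made for 2 of the 14 tested genes, both higher (*Fbln2* at 15.3, 38.5 and 23.5 CPM against 1.68, and *Col5a2* at 8.82, 34.4 and 11.0 against 0.404). The median log2 fold change of the list was 1.33. The part of feeder or fibroblast RNA in the levels of *Cdh2* and *Sox11* was not tested.

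**Figure D3:**
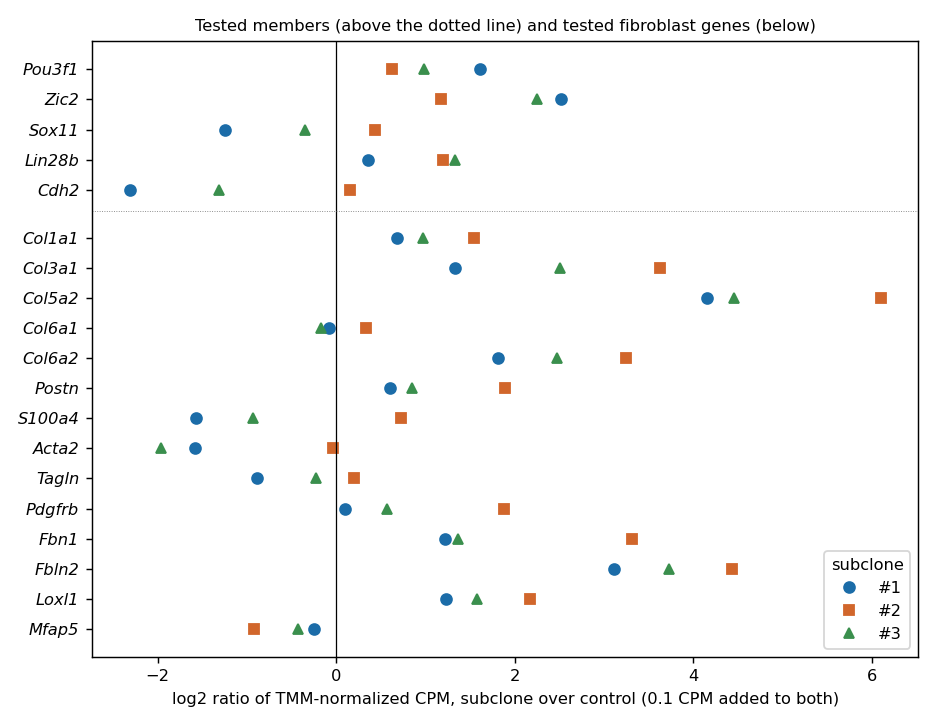
log2 ratio of TMM-normalized CPM of each subclone to the control (x axis, 0.1 CPM added to both) for the 5 tested markers and the 14 tested fibroblast genes, with #1 as circles, #2 as squares and #3 as triangles. *Cdh2* and *Sox11* have #2 on the right and #1 on the left, as do many of the fibroblast genes, while *Zic2* and *Pou3f1* have the opposite order.

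*Tbxt*, also called brachyury or *T*, is the T-box gene of the primitive streak and is the latest of these markers in development. It is at chr1:52887067-52894832 on the minus strand, with 1974 bases of exon (ENSRNOG00000012229). The count was 0 in each of the 3 subclones and 10 in the control, where it stood at 0.673 CPM. This level was 3.76-fold above the highest floor of 3 counts among the subclones, a value that leaves out counting error in the control. With that error, the counting interval of the ratio to the control reached up to 0.395 in #1, 0.375 in #2 and 0.369 in #3. With no filter on low counts, edgeR gave an adjusted p of 0.0822 for *Tbxt*, above the threshold. The nearest gene model, *T2*, 12602 bases away, had 0 counts in all libraries.

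Other genes of the primitive streak and early mesoderm ranged widely in level. Of 23 genes in this list, 7 had 0 counts in all 4 libraries and 10 were tested, of which none was called, with a median log2 fold change of 0.03. *Eomes*, a T-box relative of *Tbxt*, was at 4.95, 7.75 and 5.18 CPM in #1, #2 and #3 and 4.98 in the control (log2 fold change 0.26, SE 0.45, adjusted p = 0.714, edgeR). *Mixl1*, *Evx1* and *Mesp1*, which mark the streak, were at 0 throughout. Others of the list were read in every library, such as *Wnt3a* (33.7 to 63.1 CPM) and *Axin2* (21.5 to 29.0). *Snai1* was at 5.96, 7.58 and 6.90 CPM in #1, #2 and #3 and 16.4 in the control, the control being highest. The log2 fold change of *Snai1* was -1.27 (SE 0.34, adjusted p = 0.0522, edgeR), just outside the threshold. *Gsc* was at 18.4, 5.88 and 19.6 CPM in #1, #2 and #3 and 4.98 in the control. *Cdx2* was at 3.34 CPM in #1, 35.9 in #2, 4.95 in #3 and 24.3 in the control, so that, like *Cdh2*, it was high in #2 and in the control. Of the neural ectoderm list of 20 genes, 19 were in the table and 8 were tested. The intermediate filament gene *Nes* was lower in Thop1-KO, at 0.358, 0.735 and 0.167 CPM against 8.48 (log2 fold change -4.31, SE 0.68, adjusted p = 0.0147, edgeR), and the median of the list was 0.10.

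Among other genes of the formative and primed states, 26 were listed, 22 were in the table and 19 were tested. Of these, 2 were called higher and 2 lower in Thop1-KO, beside 8.62% and 5.17% of all genes tested. The median log2 fold change was 0.46. The DNA methyltransferase genes *Dnmt3b* (134, 128 and 87.0 CPM in #1, #2 and #3 against 26.6) and *Dnmt3a* (195, 138 and 112 against 49.5) were higher in every subclone (adjusted p = 0.0176 and 0.0402, edgeR). The chromatin factor gene *Utf1* (622, 405 and 626 CPM against 1566) and the ETS factor gene *Etv4* (5.25, 26.4 and 10.6 against 125) were lower in every subclone (adjusted p = 0.0206 and 0.0318, edgeR). *Etv5*, a paralog of *Etv4*, was at 494, 358 and 535 CPM against 331 and was not called (log2 fold change 0.48, adjusted p = 0.272, edgeR). *Fgf5*, the usual marker of the early primed epiblast, had 0 counts in all 4 libraries.

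For comparison, 14 of 17 genes of the naive state were tested. Among them, 3 were called higher in Thop1-KO (*Esrrb*, *Fgf4* and *Tfcp2l1*) and none was called lower, with a median of 0.59. Of 10 core ESC genes, 9 were tested. *Sall4*, *Dppa4* and *Cdh1* were called higher, *Utf1* and *L1td1* were called lower, and the median was -0.09. *Sall4*, *Cdh1* and *Utf1* are also counted in other lists above. Of all genes tested, 8.62% were called higher and 5.17% lower.

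**Figure D4:**
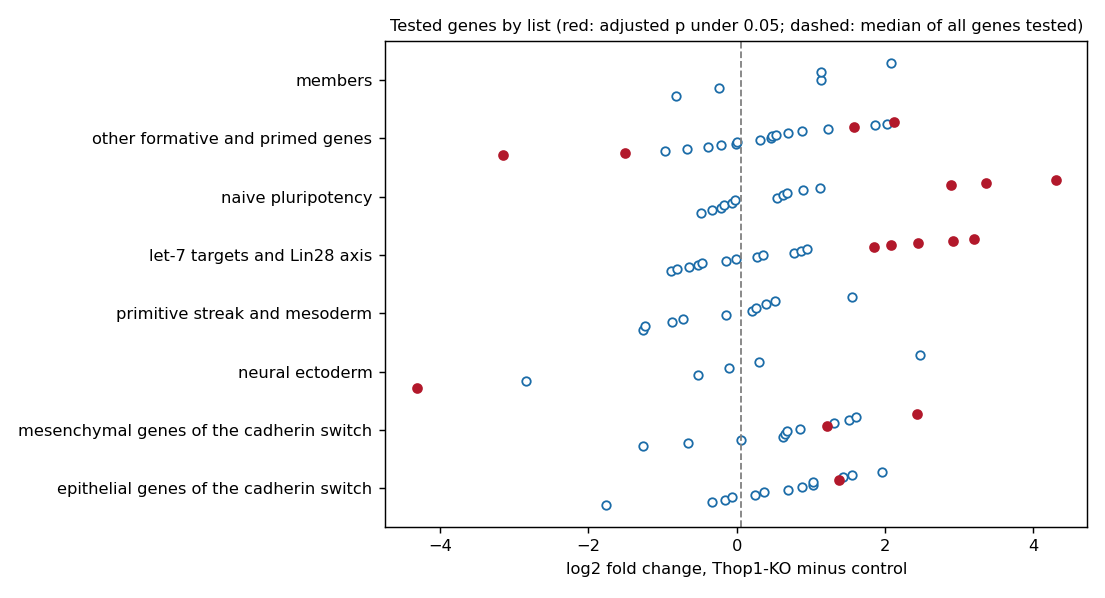
log2 fold change of Thop1-KO over the control (x axis) of each tested gene with counts in the control, by gene list (y axis, points spread for legibility), with red points at an adjusted p under 0.05 by edgeR and the dashed line at the median of all genes tested, 0.06. None of the 5 tested markers is red. Of 14 naive and 17 let-7 genes, 3 and 5 are red on the right, beside 8.62% of all genes tested called higher.

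Compared per length, the markers spanned a wide range of levels. In the control the order by FPKM was *Zic2* (17.0), *Sox11* (7.33), *Pou3f1* (3.36), *Cdh2* (1.58), *Lin28b* (0.651), *Tbxt* (0.336), *Otx2* (0.153) and *Sall2* (0.0117). Over the subclones, *Zic2* was highest at 72.2 ± 30.5 FPKM (SD, n = 3), a level above 88.5% of all genes tested on the mean of the libraries. *Pou3f1* (7.40 ± 2.69) and *Sox11* (6.22 ± 3.43) followed and did not differ beyond their spread, and neither did *Lin28b* (1.44 ± 0.495) and *Cdh2* (0.888 ± 0.763). *Sall2* was at 0.0293 ± 0.0296 FPKM and *Tbxt* and *Otx2* were at 0. The exon length of *Zic2*, *Sox11*, *Lin28b*, *Tbxt* and *Otx2* is a multiple of 3, as in 51.8% of the protein-coding models of the table. It does not show whether a model lacks untranslated exon bases, which would move FPKM.

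The spread of each tested marker among the 3 subclones was set beside that of all genes tested, whatever their level. The SD of log2 CPM over the subclones was 1.24 for *Cdh2*, larger than in 95.8% of the genes tested. It was 0.835 for *Sox11* (87.4%), 0.709 for *Zic2* (82.5%), 0.528 for *Lin28b* (71.5%) and 0.499 for *Pou3f1* (69.1%), and the median over all genes tested was 0.334. The counts of *Lin28b* in the subclones (12 to 27) are low enough for counting error to widen its SD, so its place among genes of other levels is not read as a difference. The markers did not vary in 1 direction. *Zic2* and *Pou3f1* were highest in #1 and lowest in #2, and *Sox11* and *Cdh2* were the reverse.

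**Figure D5:**
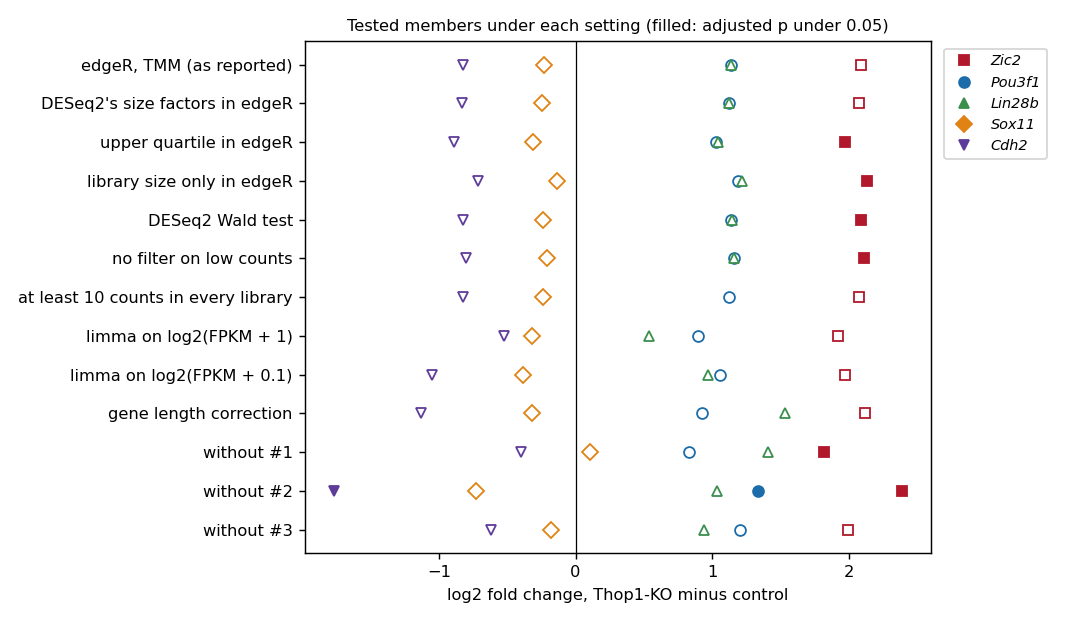
log2 fold change of the 5 tested markers (x axis) in the analysis as reported and in each alternative (y axis), with filled symbols at an adjusted p under 0.05. *Zic2* keeps values between 1.82 and 2.39 and is filled in 6 of 12 alternatives, *Pou3f1* and *Cdh2* are filled only without #2, and *Sox11* crosses 0 without #1.

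The genes whose levels followed each marker most closely were sought among 8761 protein-coding genes with a mean of at least 5 CPM, by the Euclidean distance of the 4 centred log2 CPM values. For *Zic2* these were *Qsox2* (distance 0.0787, 107, 43.5 and 96.5 CPM in #1, #2 and #3 and 19.6 in the control) and *Naaa* (0.102). *Pou3f1* was followed by *Rarres2* (0.0585) and *Mpv17* (0.0649), and 486 genes lay within a distance of 0.5 of it. *Lin28b* was nearest to *Mga* (0.105) and *Zbtb10* (0.110), and *Sox11* to *Cenpe* (0.237) and *Srsf10* (0.244). *Cdh2* had 11 genes within a distance of 0.5, the fewest of the 5 markers, and *Abhd5* (0.351) and *Sulf1* (0.360) were nearest. *Sulf1* was at 4.89 CPM in #1, 37.5 in #2, 13.1 in #3 and 32.4 in the control. The distance rests on 4 libraries, so likeness of this kind is a description.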

How the data were processed

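Poly(A) RNA of 4 rat ESC cultures (1 control, 3 Thop1-KO subclones) was sequenced. The authors deposited raw counts per gene, together with FPKM values made from these counts and the gene lengths, after adaptor removal with the FASTX toolkit. The submitters' processing notes name HISAT2 2.0.5 and featureCounts 1.5.0-p3. The genome build, the annotation version and strand settings are not given in the sources used here. Samples were grouped by their genotype label. The number that ends each Thop1-KO title was read as the subclone number of the study, which the labels do not state.

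Counts were tested in R 4.3.3 with the quasi-likelihood method of edgeR 4.0.16, after filterByExpr (minimum count 10) and TMM scaling, and p-values were adjusted by Benjamini-Hochberg over all genes tested. CPM values use TMM-scaled totals. The 12 alternatives were other scalings, DESeq2 1.42.0 (the test of the study), other filters on low counts, log2 FPKM in limma 3.58.1 with 1 or 0.1 added, a loess gene-length correction (span 0.3) and each subclone left out. The scripts were tested on simulated data. Counting intervals are exact 95% intervals and cover counting error only, since reads carry no molecular identifiers. No pair of libraries agreed within sampling noise (chi-square per degree of freedom of 22.4 or more). Sequences were taken from RefSeq tables, since no genome was used here. Figures were drawn with Python 3.11.15, pandas 2.3.3, numpy 2.4.6 and matplotlib 3.10.9.

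The markers, the gene lists and the alternatives were chosen with earlier results of these data known. The genes named are the 9 markers, *Thop1*, core ESC genes, the 4 called genes of each list with the smallest p in each direction, the tested family relatives, the nearest genes of a marker and the 2 genes most like it. *Mixl1*, *Evx1*, *Mesp1*, *Wnt3a*, *Axin2*, *Snai1*, *Gsc*, *Fgf5*, *Cdx2*, *Dcn*, *Lum*, *Thy1*, *Col1a1*, *Col3a1*, *Pdgfrb*, *Postn*, *Arid3a*, *Etv5*, *Gata4*, *Gata6*, *Sox17*, *Pdgfra*, *Dab2*, *Zic1* and *Pou3f2* were named in addition, after their values were seen. Where a symbol had 2 rows, the row with more counts was used. One family relative is not reported here by name.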

Additional observations from a re-analysis of the deposited data

How the results depend on the processing

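The 5 tested markers kept their direction in every alternative, except *Sox11*, whose log2 fold change was between -0.73 and 0.10 with a subclone left out, the latter without #1. *Lin28b* could not be tested with at least 10 counts in every library. The number of markers called, 0 as reported, was 1 with upper-quartile scaling, with library size only, with DESeq2 and with no filter on low counts, each time *Zic2* (adjusted p = 0.0457, 0.0371, 0.000121 and 0.0327), and between 0 and 3 with a subclone left out. It was 1 without #1, 3 without #2 and 0 without #3. In the same order, 2022 of 14824, 5572 of 14704 and 457 of 14761 genes tested were called, the background of these counts. Upper-quartile scaling called 2170 and library size only 2042 of 15028 genes, DESeq2 3006 of 13973 and no filter 2198 of 19903. Of all genes, 2072 were called as reported and between 457 and 5572 with a subclone left out. Of these, 1295 were higher as reported (1987 with DESeq2, and between 354 and 3096 with a subclone left out), and 777 were lower (between 103 and 2476). The fewest calls came without #3 and the most without #2. No paired analysis was possible because the control has 1 library and its label carries no replicate number. The depth limits *Sall2*, *Otx2* and *Tbxt*, whose highest count in any library was 6, 2 and 10. The spread comes from 3 subclones, so a p-value does not cover the spread between control cultures.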

Other observations

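Genes of lineages outside the epiblast were read as a check of other cell types. Of 15 genes of the primitive endoderm, the extraembryonic layer that forms beside the epiblast, 11 were tested. The laminin chain gene *Lamb1* was called higher in Thop1-KO and no gene was called lower, and the median log2 fold change was 1.38. The summed level of this list was 1610, 1897 and 2204 CPM in #1, #2 and #3 and 1045 in the control. The defining genes had few counts and did not share a direction. *Gata4* was counted 3, 0 and 3 times in #1, #2 and #3 and 17 times in the control, whereas *Gata6* (63, 24 and 16 against 9), *Sox17* (34, 37 and 47 against 10), *Pdgfra* (16, 8 and 14 against 2) and *Dab2* (8, 22 and 9 against 0) had more counts in the subclones, and none of these 5 was called. Of 10 trophoblast genes, 5 were tested and none was called, with a median of 0.26.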
